A study of Caenorhabditis elegans with 4 samples.

Results

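The genes described here are the Argonautes alg-1, alg-2, rde-1, prg-1, csr-1, ergo-1, hrde-1 and wago-1 of the nematode Caenorhabditis elegans, together with dcr-1, which encodes the nuclease Dicer. They were chosen by name: a probe counted as a member when the array platform's annotation gave it 1 gene and that gene was on this list of 9. All 9 genes were found, with 11 probes out of 21632 on the array, on which 14943 genes had a probe of their own. Both ergo-1 and hrde-1 had 2 probes, and the other genes had 1 each. RNA from wild-type second-stage (L2) larvae was hybridised on 2-colour arrays together with RNA of a mixed wild-type reference, 1 array for each of 4 RNA preparations (preps 1 to 4). The labels name no strain, culture or dye and do not say which stages the reference held. Each value is therefore a log2 ratio within an array, with channel 2 (L2) read over channel 1 (reference), and is not a level.

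Argonautes are proteins that hold a small RNA and use it to find matching transcripts. In worms they form several pathways. ALG-1 and ALG-2 carry microRNAs, RDE-1 carries siRNAs cut from foreign double-stranded RNA, ERGO-1 carries endogenous siRNAs of the 26G class, and PRG-1, the worm Piwi protein, carries piRNAs. RDE-1, ERGO-1 and PRG-1 are primary Argonautes, which can call on RNA-dependent RNA polymerases to make secondary siRNAs of the 22G class. Other Argonautes, such as CSR-1, WAGO-1 and HRDE-1, hold siRNAs of the 22G class, not all of which start from these primary Argonautes. HRDE-1 acts in germ line nuclei in silencing that is passed to progeny. Dicer cuts the precursors of microRNAs and of the primary siRNAs of RDE-1 and ERGO-1, but not of piRNAs or of 22G siRNAs. Several of the 22G and piRNA proteins are known from the germ line, which is small at the L2 stage, whereas the microRNA Argonautes are known from most tissues.

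As a check of the direction of the ratios, 7 genes of yolk proteins and major sperm proteins, which L2 larvae do not make, all lay far below 0, with means between -5.59 and -3.50. The direction is likely, then, but no dye record settles it. Of 19 measured markers of the germ line and oocytes, which include P granule, meiosis and eggshell genes, 12 were lower in L2, 0 were higher and all 19 had a mean below 0 (median -0.95). The 12 lower markers come to 63.2%, against 9.87% lower of all features tested. Of all features 48.9% had a mean below 0. Over the 19 markers the summed log2 ratio lay between -38.0 and -26.1 in the 4 preps. The germ cell helicase gene glh-1 (-0.25 ± 1.12, SD, n = 4) and the P granule gene pgl-1 (-0.67 ± 0.85) did not pass the test. Of 10 markers of muscle, intestine, neurons and epidermis 3 were higher and 0 lower, with a median of 0.69 and sums between 0.31 and 11.4. The 3 higher come to 30%, against 4.85% higher of all features. They were the muscle genes myo-2 and myo-3 and the intestine gene ges-1. The neuron markers did not share this direction. Their 3 means were the only ones of the list below 0, the lowest at -0.53, and none passed the test. Without preps 1, 2, 3 and 4 the higher soma markers numbered 1, 1, 5 and 1. In whole-animal RNA, fewer germ cells and less RNA per germ cell cannot be told apart. Prep 3 stood apart from the other arrays: its ratios correlated with theirs at r = 0.476 to 0.564 across probes, against 0.670 to 0.728 among preps 1, 2 and 4.

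Of the 9 genes, 4 were lower in L2 than in the reference and 0 were higher (limma, adjusted p under 0.05 over 19941 features tested; at an unadjusted p under 0.05 also 4 and 0). The 4 were the germ line nuclear Argonaute hrde-1, wago-1, csr-1 and ergo-1, with falls of between 2.02-fold and 4.92-fold. The 5 others, alg-1, alg-2, rde-1, prg-1 and dcr-1, had means between -0.41 and 0.60 on the log2 scale. Over all features the test called 14.7%, of which 9.87% of features were lower and 4.85% higher, and the 4 of 9 lower come to 44.4%. At an unadjusted p under 0.05 (limma) 3699 of the 19941 features were lower and 2744 higher. The median of the 9 means was -0.41, against 0.013 for all features. Nothing in the labels states that the preps were separate cultures. The p-values therefore rest on the spread among these RNA preparations alone, which may be technical, and they leave out the spread of the reference.

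**Figure D1:**
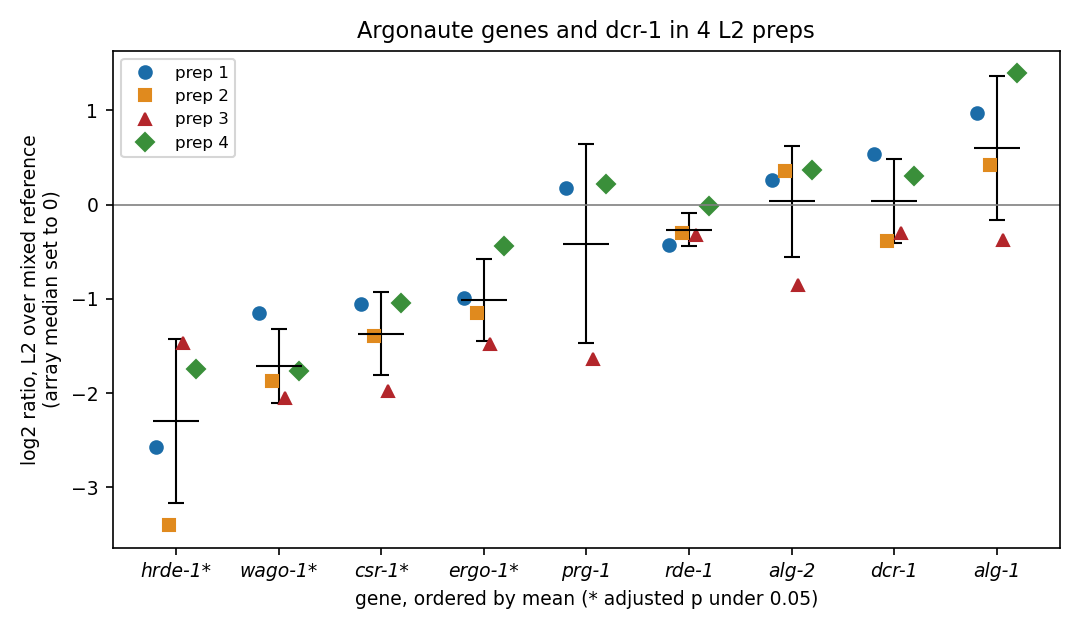
Log2 ratio of L2 over the mixed reference (vertical axis, array median set to 0) for each of the 9 genes, ordered by mean; coloured symbols are the 4 preps, and the black bar with whiskers is the mean ± SD. The genes hrde-1, wago-1, csr-1 and ergo-1 lie below 0 in every prep, and prep 3 (red triangle) is the lowest value for 6 of the 9 genes but the highest for hrde-1.

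The gene with the lowest ratio was hrde-1, whose Argonaute enters germ line nuclei and is needed for silencing to be inherited. Its log2 ratios were -2.57, -3.40, -1.47 and -1.75 in preps 1, 2, 3 and 4, a mean of -2.30 ± 0.87 (SD, n = 4; 4.92-fold lower, adjusted p = 0.00677). All 4 preps lay well below 0, with preps 1 and 2 lower than preps 3 and 4. The 2 probes of hrde-1 gave means of -2.43 and -2.17, each past the threshold when probes were fitted singly (adjusted p = 0.0046 and 0.0167). They differed by prep: the first read -3.0, -3.07, -1.38 and -2.25, and the second read -2.14, -3.74, -1.55 and -1.25. The split between preps also follows the month in the array titles, which preps 1 and 2 share (mean -2.99) and preps 3 and 4 share (mean -1.61). Its part in the result was not tested beyond these values.

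WAGO-1 is a germ line Argonaute of secondary siRNAs that silence transposons, pseudogenes and some coding genes. The gene wago-1 had log2 ratios of -1.15, -1.87, -2.06 and -1.77 in preps 1 to 4, a mean of -1.71 ± 0.40 (SD, n = 4; 3.27-fold lower, adjusted p = 0.00326). Prep 1 was nearest to 0, and the other 3 preps lay close together. CSR-1 holds secondary siRNAs that match transcripts the germ line expresses. For csr-1 the ratios were -1.06, -1.40, -1.98 and -1.04, a mean of -1.37 ± 0.44 (2.58-fold lower, adjusted p = 0.00813), with prep 3 lowest. The month means were -1.51 for preps 1 and 2 and -1.91 for preps 3 and 4 at wago-1, and -1.23 and -1.51 at csr-1, so both genes were below 0 within each month. Each of the hrde-1, wago-1 and csr-1 calls was kept when any 1 of the preps was left out (adjusted p from 0.00758 to 0.0395). Of the germ line markers 12 of 19 were also lower, with medians of -0.84, -1.50, -1.66 and -0.83 in preps 1 to 4. The median of the markers was thus lowest in prep 3, as were wago-1 and csr-1, whereas hrde-1 was highest there. Single markers differed in this. The eggshell gene perm-2, like hrde-1, was lowest in prep 2 (-5.85) and highest in prep 3 (-3.41), whereas pgl-1 was lowest in prep 3 (-1.90). The markers as a list therefore do not set hrde-1 apart. The part of germ line content in the result was not tested.

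The primary siRNA Argonautes were ergo-1, whose 26G siRNAs are known from oocytes and embryos, and rde-1, which is needed for RNAi by injected or fed double-stranded RNA. The gene ergo-1 had ratios of -0.99, -1.15, -1.48 and -0.44, a mean of -1.01 ± 0.44 (SD, n = 4; 2.02-fold lower, adjusted p = 0.022). Its call was lost without prep 1 (adjusted p = 0.0802) or prep 2 (0.0868), with means of -1.02 and -0.97, and was kept without prep 3 (0.0435) or prep 4 (0.0262). The 2 probes of ergo-1 had means of -0.88 and -1.15 and lay below 0 in each prep, and they were furthest apart in prep 2 (-0.80 and -1.50). By contrast, the values of rde-1 were small and close together, at -0.43, -0.30, -0.32 and -0.014. Their mean of -0.26 ± 0.18 did not pass the test (adjusted p = 0.276), and its 95% interval ran from -0.63 to 0.10. Within each prep rde-1 was above ergo-1, by 0.75 ± 0.33 on average (exact sign-flip permutation test, two-sided, n = 4, p = 0.125, which is the smallest p that 4 preps allow). Over the 3 differences between members that were tested this way the adjusted p was 0.188.

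PRG-1 binds piRNAs in germ cells. The gene prg-1 had no value in prep 2, and its other ratios were 0.18, -1.64 and 0.22 in preps 1, 3 and 4. Prep 3 alone was low, and the mean of -0.41 ± 1.06 (SD, n = 3) did not pass the test (adjusted p = 0.511; 95% interval from -1.41 to 0.58). The gene prg-2, a close copy that RefSeq annotates as a pseudogene, was likewise lowest in prep 3 (0.053, -0.28, -0.97 and -0.10 in preps 1 to 4). Hybridisation may not tell the copies apart, so the prg-1 values are uncertain. The difference of csr-1 minus prg-1 was -1.24, -0.34 and -1.26 in preps 1, 3 and 4 (mean -0.95 ± 0.52, exact permutation test, n = 3, p = 0.25, the smallest that 3 preps allow).

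Of the microRNA Argonautes alg-1 had the highest mean of the 9 genes. Its values were 0.98, 0.42, -0.38 and 1.39 in preps 1 to 4, a mean of 0.60 ± 0.77 (SD, n = 4; adjusted p = 0.204, 95% interval from -0.094 to 1.3). It was above the reference in 3 of 4 preps, and prep 3 alone was below. The paralog alg-2, which acts partly redundantly with alg-1, had values of 0.26, 0.36, -0.85 and 0.37, so that the mean of 0.034 ± 0.59 (adjusted p = 0.935, interval -0.55 to 0.61) joins 3 close values with 1 low one. In every prep alg-1 was above alg-2, by 0.72, 0.065, 0.47 and 1.02 (mean 0.57 ± 0.40, exact permutation test, two-sided, n = 4, p = 0.125, again the smallest possible). The genes are similar in sequence, and whether each probe reads its own gene alone was not tested. Without prep 3 the mean of alg-1 was 0.93 (adjusted p = 0.0509) and that of alg-2 was 0.33 (adjusted p = 0.174). With array weights, in which prep 3 had a weight of 0.468 and prep 1 one of 1.59, alg-1 passed the threshold (mean 0.87, adjusted p = 0.0483).

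Dicer, which serves both the microRNA and the primary siRNA pathways, had values on both sides of 0. The values of dcr-1 were 0.53, -0.38, -0.30 and 0.31 in preps 1 to 4, with preps 1 and 4 above and preps 2 and 3 below the reference. The mean was 0.040 ± 0.45 (SD, n = 4; adjusted p = 0.908). Its 95% interval, from -0.45 to 0.53, does not hold the means of the 4 lower genes, of which ergo-1 at -1.01 was nearest. The upper end of the ergo-1 interval (-0.53) comes close to it, and the ergo-1 value of prep 4 (-0.44) lies inside it. Both intervals rest on the spread among the 4 preps alone.

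In the order of means, hrde-1, wago-1, csr-1 and ergo-1 were followed by prg-1, rde-1, alg-2, dcr-1 and alg-1. Neighbours in this order all overlapped in their ranges over the preps. The step from csr-1 to wago-1 was in 1 direction in each prep (0.34 ± 0.32), as was that from ergo-1 to csr-1 (0.35 ± 0.24), whereas wago-1 and hrde-1 changed places between preps (0.59 ± 1.06). The step from alg-2 to dcr-1 was 0.0057 ± 0.56. Prep 3 weighed on these values unequally. Prep 3 minus the mean of the other preps was -1.84 at prg-1, -1.31 at alg-1, -1.18 at alg-2 and -0.82 at csr-1. It was -0.07 at rde-1 and 1.11 at hrde-1. Over all features this difference had a median of 0.060 and an SD of 0.724. All 9 genes were below 0 in prep 3, against 5 of 9 in prep 1, 6 of 8 in prep 2 and 5 of 9 in prep 4. The median of all features in prep 3 was 0.0069.

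**Figure D2:**
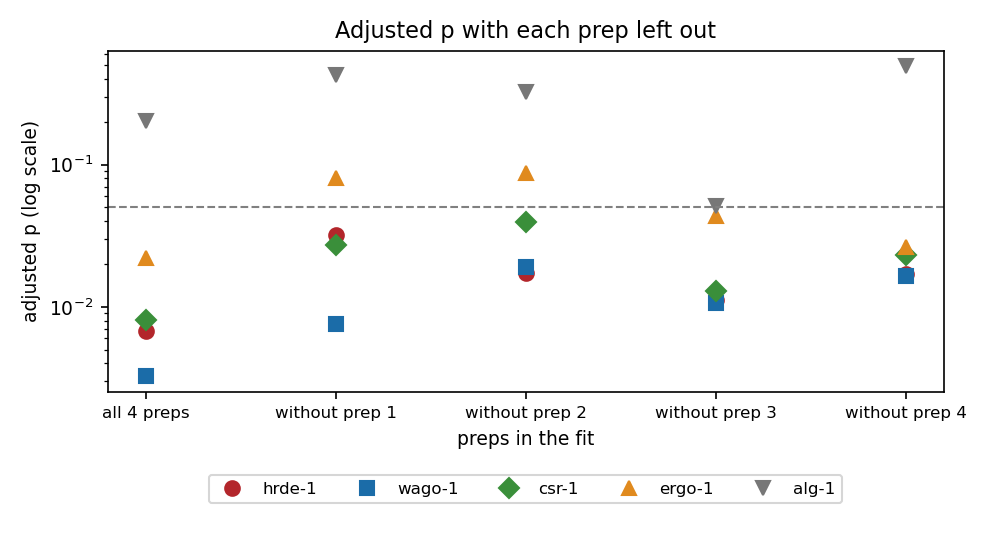
Adjusted p from limma (log axis) for the 4 lower genes and alg-1, with all 4 preps and with each prep left out; the dashed line is the threshold of 0.05. The points of hrde-1, wago-1 and csr-1 stay below the line, those of ergo-1 rise above it without prep 1 or prep 2 (0.0802 and 0.0868), and alg-1 comes nearest to it without prep 3 (0.0509).

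Among the other Argonaute genes listed for the comparison, 13 had a probe of their own, and 5 names had none. Of these 13, 5 were lower and 0 higher (limma; 7 and 0 at an unadjusted p under 0.05), and 12 had a mean below 0. With the 8 member Argonautes that makes 9 lower and 0 higher of 21, or 42.9% lower against the background of 9.87%. Of the 21 means 18 were below 0, against 48.9% of the means of all features. At the unadjusted threshold 3699 of all 19941 features were lower and 2744 higher. Leaving aside the 3 that RefSeq annotates as pseudogenes (wago-2, prg-2 and ZK218.8), 8 of 18 were lower. The 9 lower genes include wago-4, whose probes disagree, and wago-2 and sago-1, whose calls were lost whichever prep was left out.

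The lowest outside the members was alg-5, a microRNA Argonaute of the germ line. Its ratios were -1.69, -1.96, -1.57 and -1.46 in preps 1 to 4 (mean -1.67 ± 0.22, SD, n = 4, adjusted p = 0.00191). These values do not overlap with those of alg-1 or alg-2, the other Argonautes of that pathway, in any prep, and the within-prep difference was -2.27 ± 0.74 from alg-1 and -1.70 ± 0.69 from alg-2. A like contrast was seen between the nuclear Argonautes. The somatic nuclear Argonaute gene nrde-3 had ratios of 0.0029, -0.022, -0.35 and 0.21 (mean -0.040 ± 0.23, adjusted p = 0.879), and hrde-1 minus nrde-3 within a prep was -2.26 ± 0.96. These pairs were singled out after their values were seen, and no test is given.

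The next lowest was vsra-1, with a mean of -1.39 ± 0.30 (adjusted p = 0.00459). Calls nearer to the threshold were wago-2 at -0.85 ± 0.48 (adjusted p = 0.0422), sago-1, of a secondary siRNA Argonaute, at -0.76 ± 0.36 (adjusted p = 0.0389) and wago-4, of a germ line Argonaute in inherited RNAi, at -0.73 ± 0.16 (adjusted p = 0.0249). The wago-4 mean joins 2 probes that disagree, 1 at -1.70 ± 0.24 (adjusted p = 0.00206) and 1 at 0.25 ± 0.13 (adjusted p = 0.3), so its ratio is not settled by these arrays. Those not past the threshold were sago-2 (-0.76 ± 0.87, with prep 3 at -2.03), wago-5 (-0.52 ± 0.27), the sperm-forming 26G Argonaute genes alg-4 (-0.49 ± 0.21) and alg-3 (-0.16 ± 0.45), wago-10 (-0.25 ± 0.45), prg-2 (-0.33 ± 0.45) and ZK218.8 (0.16 ± 0.59). Without preps 1, 2, 3 and 4 the count of 5 was 2, 2, 3 and 2, and alg-5 and vsra-1 passed each time (adjusted p from 0.0065 to 0.024).

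**Figure D3:**
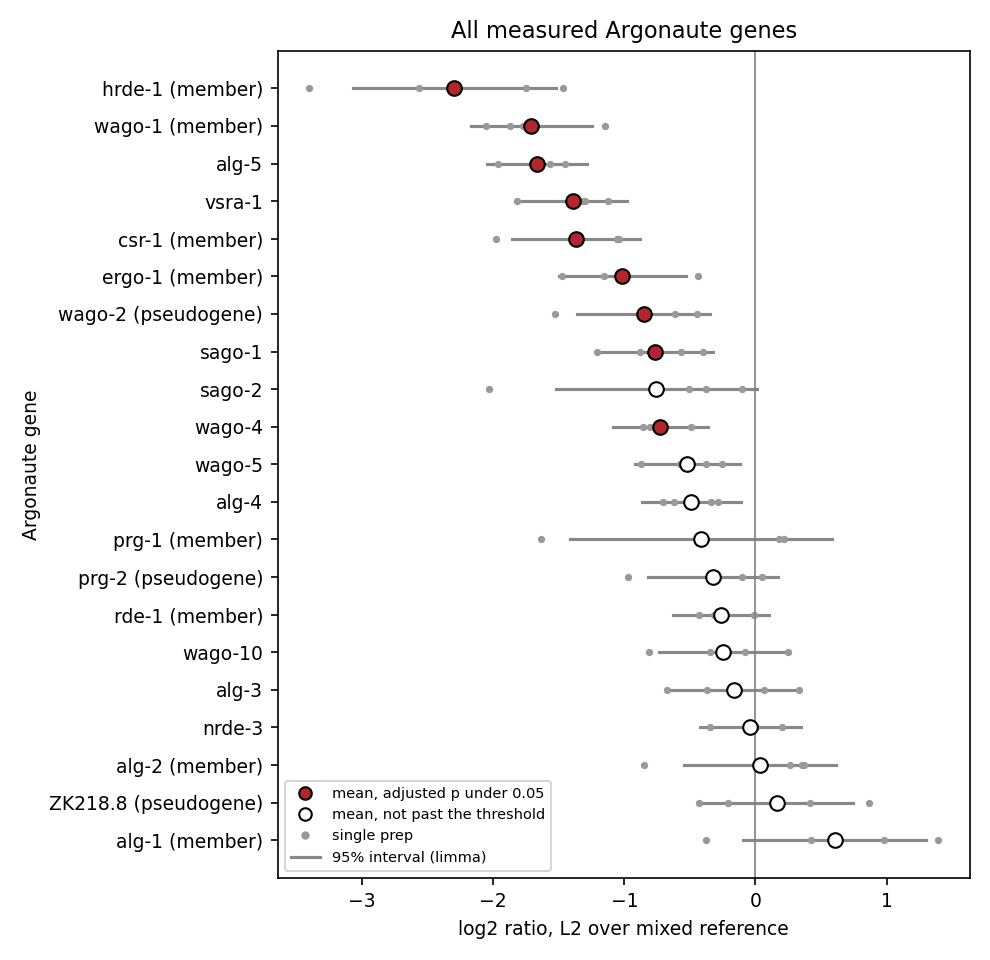
Mean log2 ratio of L2 over the mixed reference for all 21 measured Argonaute genes, lowest at the top, with the 4 single preps (grey points) and limma's 95% interval (grey line); filled circles passed the threshold. All 9 filled circles lie below 0, from hrde-1 at -2.30 to wago-4 at -0.73, and alg-1 at 0.60 is the highest. The probes of wago-4 disagree, and the calls of wago-2 and sago-1 were lost whichever prep was left out.

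The proteins that work with these Argonautes were described from lists of pathway genes. Some genes, such as mut-14, henn-1 and ego-1, are shared between lists. They count in each list but only once in the joined lists, so the lists are not independent of each other. Over all lists joined, the other Argonautes included and the members left out, 23 of 75 measured genes were lower and 0 higher, or 30.7% lower against 9.87% of all features. The median of the 75 means was -0.49. Without prep 3 the counts were 19 lower and 2 higher, and the higher genes were tsn-1 (1.00, adjusted p = 0.0231) and sid-3 (0.76, adjusted p = 0.0482). Without preps 1, 2 and 4 the lower genes numbered 8, 8 and 12. In the same fits the lower features of the whole array also fell, from 1968 to 872, 879 and 1207.

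The mutator complex, which sits beside germ granules and is needed to make secondary siRNAs, had a median of -0.77. Of its 8 measured genes 5 were lower and 0 higher, or 62.5% lower against 9.87% of all features. They were the nucleotidyltransferase gene rde-3 (-1.42 ± 0.43, adjusted p = 0.00682), the helicase gene smut-1 (-1.26 ± 0.26) and its paralog mut-14 (-0.86 ± 0.27), rde-2 (-1.0 ± 0.25) and the exonuclease gene mut-7 (-0.68 ± 0.32, adjusted p = 0.0488). The scaffold gene mut-16 was at -0.25 ± 0.30 and did not pass. With preps 1, 2, 3 and 4 left out in turn, 3, 2, 4 and 4 mutator genes were lower, and mut-7 was not among them in any of these fits (adjusted p from 0.0679 to 0.151).

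Among 15 genes on the list for the making of piRNAs, 7 were lower and 0 higher, or 46.7% lower against 9.87% of all features. The list median was -0.64, and prg-1 itself did not pass. The lowest mean was that of tost-1, listed as a partner of the PETISCO complex, at -1.76 ± 0.30 (adjusted p = 0.00206). Being listed does not show that tost-1 itself acts in making piRNAs. Next were snpc-1.1 at -1.0 ± 0.41 (adjusted p = 0.0212) and henn-1, the methyltransferase of piRNAs and of ERGO-1 siRNAs, at -0.97 ± 0.17 over 3 arrays (adjusted p = 0.0253). The trimming exonuclease gene parn-1 was at -0.12 ± 0.13, and snpc-1.3, known from piRNA transcription in male germ cells, had the highest mean (0.54 ± 0.34, adjusted p = 0.0949). Without preps 1, 2, 3 and 4 the count was 1, 2, 7 and 2. Of the 7 calls with all preps, 1 rested on 2 probes that each missed the threshold when fitted singly (limma, adjusted p = 0.128 and 0.0694). Another listed gene, not past the threshold, had 2 probes that disagreed, with means of 0.12 and -0.88.

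Among the RNA-dependent RNA polymerase genes ego-1, which makes the CSR-1 class of 22G siRNAs in the germ line, was lower (-0.93 ± 0.56, adjusted p = 0.0435). It missed the threshold when prep 1, 2 or 4 was absent, with adjusted p between 0.0807 and 0.129. The other two measured were rrf-2 (-0.45 ± 0.15) and the 26G polymerase gene rrf-3 (-0.014 ± 0.15), neither past the threshold. The other members of the CSR-1 list, ekl-1 (-0.10 ± 0.31) and the helicase gene drh-3 (-0.09 ± 0.37), had means near 0, whereas csr-1 fell. Of 9 genes of the ERI complex and the 26G pathway only henn-1 passed in this fit, or 11.1% lower against 9.87% of all features. The list median was -0.44. As henn-1 had no value in prep 2, it could be tested again only without that prep, where it passed (adjusted p = 0.0406). Those with the next lowest means were eri-7 (-0.60 ± 0.25, adjusted p = 0.055) and eri-1 (-0.52 ± 0.21, adjusted p = 0.0709).

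In the nuclear pathway 2 of 8 genes were lower and 0 higher, or 25% lower against 9.87% of all features. They were hrde-2, which helps HRDE-1 take up its siRNAs, at -1.2 ± 0.22 (adjusted p = 0.00562), and the ATPase gene morc-1, at -1.08 ± 0.60 (adjusted p = 0.0324), and only hrde-2 was kept without prep 1, 2 or 3. The genes nrde-1 (-0.27 ± 0.21) and nrde-2 (-0.0084 ± 0.69) did not pass, but these are the means nearest to 0 on the list. Another listed gene just missed the threshold (-0.82 ± 0.49, limma, adjusted p = 0.0512). All 8 means were below 0, with a median of -0.54. The count of lower genes was 3 with scale or quantile normalization and on features with all 4 arrays. Around the microRNA Argonautes 2 of 9 were lower and 0 higher, or 22.2% lower against the same 9.87%. These were the RNA helicase gene cgh-1, also a protein of germ granules (-2.52 ± 1.02, adjusted p = 0.0076), and the Drosha gene drsh-1, whose product makes the first cut of microRNA precursors (-1.06 ± 0.55, adjusted p = 0.0291; not past the threshold without prep 1, 2 or 3). The GW182 proteins of the microRNA complex, ain-1 (-0.032 ± 0.33) and ain-2 (-0.09 ± 0.21), had means near 0, like alg-2 and dcr-1, but the 3 probes of ain-1 disagreed, with means of -0.64, 0.0093 and 0.53, none past the threshold. In the list for foreign double-stranded RNA 2 of 13 were lower, or 15.4% against 9.87% of all features, with a list median of -0.19. They were mut-14, already counted among the mutator genes, and the nuclease gene rde-8 (-0.86 ± 0.46, adjusted p = 0.0387). With preps 1, 2, 3 and 4 absent in turn the count was 0, 0, 2 and 1. The Dicer partner rde-4 was at -0.44 ± 0.24 (adjusted p = 0.115).

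**Figure D4:**
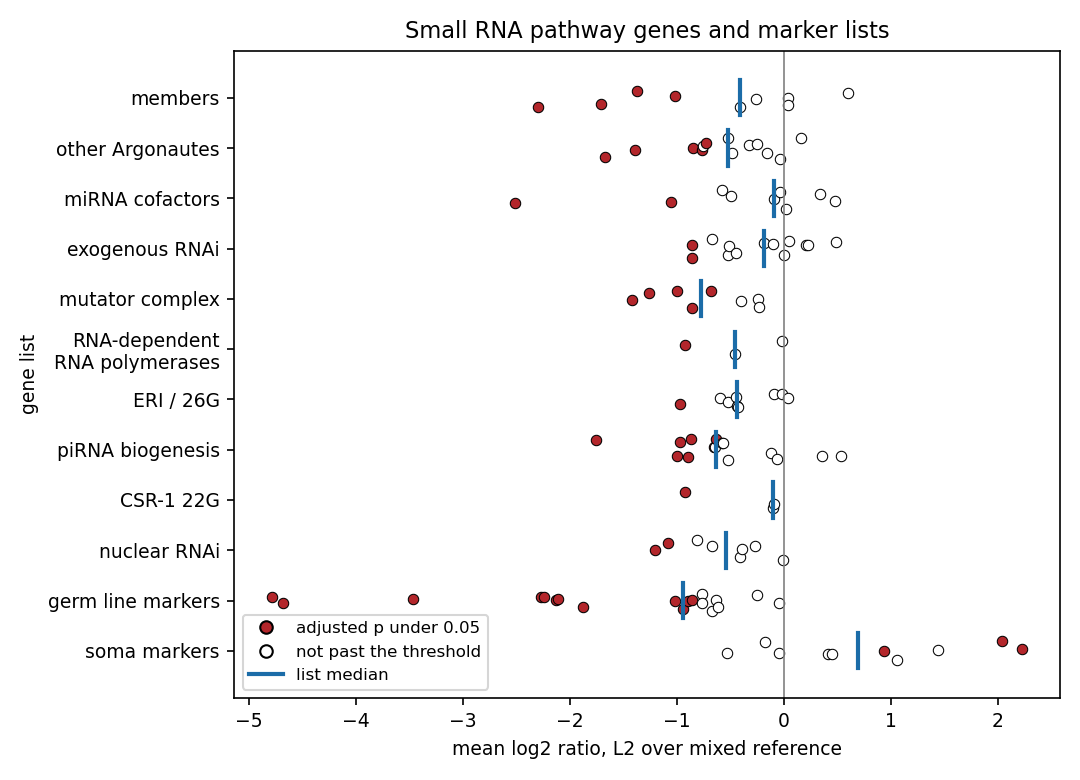
Mean log2 ratio of each measured gene (points; filled, past the threshold) in the 9 genes described, in 9 lists of small RNA pathway genes, and in markers of the germ line and soma; the blue bar is the list median. Filled points of the pathway lists all lie below 0, and list medians run from -0.77 (mutator complex) to -0.09 (microRNA cofactors), between those of the germ line markers (-0.95) and the soma markers (0.69).

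The genome neighbours of the 9 genes, taken as the nearest protein-coding gene on each side in RefSeq's annotation (WBcel235), numbered 18, of which 13 were measured. Of those 3 were lower, or 23.1% against 9.87% of all features, and 0 higher. They were R06C7.2 beside wago-1 (-0.84 ± 0.42, adjusted p = 0.0373), D2030.7 beside prg-1 (-1.53 ± 0.20, adjusted p = 0.00234) and trpp-6 beside rde-1 (-0.94 ± 0.15, adjusted p = 0.0102), of which the last 2 neighbour genes that did not pass. The call of R06C7.2 was lost whichever prep was absent (adjusted p from 0.0641 to 0.135), and that of trpp-6 without prep 1 (0.0542). The measured neighbours of hrde-1 (C16C10.4, -0.34 ± 0.40) and csr-1 (ceh-19, -1.07 ± 1.60, and frpr-10, -0.40 ± 0.58) were not past the threshold. The genes most like each member over the 4 preps, by the Euclidean distance of their log2 ratios among 14510 other genes, were zim-1 and zim-2 for wago-1 (0.297 and 0.391), lig-1 and slfl-5 for csr-1 (both 0.172), skr-8 and ZK930.2 for hrde-1 (0.386 and 0.445), and zipt-1 and T07F10.3 for ergo-1 (0.151 and 0.218). For alg-1 they were nuo-5 and calu-1 (0.206 and 0.245), for alg-2 alx-1 and set-15 (0.1 and 0.13), for rde-1 str-181 and gskl-1 (0.0583 and 0.129), and for dcr-1 igdb-1 and R10E8.4 (0.129 and 0.182). These distances rest on 4 arrays and describe likeness only.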

How the data were processed

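The authors deposited log2 ratios, 1 column for each of the 4 arrays, in the value table of the series. That the base is 2 follows from the values, since 2 to the power of a value was a whole number of thousandths (within 0.05 of one) for 100% of ratios below 0.9. Deposited medians lay between 0.0158 and 0.058. The sources used here do not give the background correction, normalization, spot filters, dyes or genome build, and spot intensities were not used, so depth is set by the number of arrays alone. Genes were assigned to probes by the annotation of the platform, where 16450 of 21632 probes had 1 gene, 247 had several and 4935 were unnamed; 16360 of the first kind matched RefSeq's table by gene ID, with 0 changed symbols.

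Each array was centred on its median, and a gene's probes were averaged within each array. Features on at least 3 arrays (19941) were tested across all genes with limma 3.58.1 in R 4.3.3 (lmFit and eBayes, two-sided, mean against 0, Benjamini-Hochberg adjustment over all features, threshold 0.05). The reference serves as 1 control sample. The fit was tested on simulated data. The members, gene lists and tests were chosen with earlier results of these data known. Named genes are all members, all other measured Argonautes, the 3 highest and 3 lowest called genes of each list (or the largest mean where none passed), and the 2 genes nearest to each member; others named in the text were added after their values were seen. Tables and figures used Python 3.11.15, pandas 2.3.3 and matplotlib 3.10.9. Alternatives were deposited values, scale and quantile normalization, array weights, single probes, features on all 4 arrays, the month in the titles as a block, and leaving out each prep.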

Additional observations from a re-analysis of the deposited data

Results flagged for a closer look

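In 7 of the 83 genes named in the text and measured on all 4 arrays, 1 prep stood far from the other 3 by Dixon's test, which chance alone would do for about 1 in 20 genes. The log2 ratio of alg-2 was -0.85 in prep 3, against 0.26 to 0.37 in the others. The genes nearest to it in pattern, which were chosen for that likeness, were low in the same prep, alx-1 at -0.86 against 0.28 to 0.45 and set-15 at -0.88 against 0.20 to 0.42. The nuclear RNAi gene nrde-2 was at -1.04 in prep 3, against 0.28 to 0.37. The body wall myosin gene myo-3, a soma marker, was at 0.47 in prep 3, against 2.38 to 2.77. For mut-14 prep 4 was nearest to 0, at -0.47 against -1.03 to -0.94, and for tost-1 prep 2 was lowest, at -2.20 against -1.67 to -1.57.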

How the results depend on the processing

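The calls of hrde-1, wago-1, csr-1 and ergo-1 were kept with deposited values, scale and quantile normalization, array weights and features on all 4 arrays (adjusted p from 0.00221 to 0.0231); ergo-1 alone lost its call without prep 1 or prep 2. With the month in the titles as a random block the estimated correlation was negative (-0.133), which lowers the standard errors, and 3794 features passed, so that this fit says nothing about whether the calls withstand a month effect. Of the 9 members 3 to 4 passed with 1 prep left out, and 5 with array weights, which added alg-1. All features past the threshold numbered 1157 to 3202 with 1 prep left out and 4218 with array weights, against 2936. Listed pathway genes lower numbered 8 to 19 and higher 0 to 2 with 1 prep left out. The differences between paired members ranged from 0.42 to 0.74 (alg-1 minus alg-2), 0.61 to 0.86 (rde-1 minus ergo-1) and -1.25 to -0.79 (csr-1 minus prg-1). Changes of sign were seen among genes near 0: alg-2 without prep 1 (-0.041), 2 (-0.073) or 4 (-0.078; 0.33 without prep 3), dcr-1 without prep 1 (-0.12) or 4 (-0.049; 0.18 without prep 2), alg-3 without prep 2 (0.0079; -0.33 without prep 3), ZK218.8 without prep 3 (-0.074; 0.36 without prep 2) and nrde-3 with quantile normalization (0.032), array weights (0.032) or without prep 3 (0.062). Others were glh-1 with array weights (0.099) or without prep 3 (0.30, lowest -0.55 without prep 1), ekl-1 likewise (0.0081 and 0.047, lowest -0.18 without prep 4), and drh-3 likewise (0.047 and 0.054, lowest -0.20 without prep 1). With deposited values, scale normalization, quantile normalization and array weights, rrf-3 was at 0.023, 0.0036, 0.041 and 0.0012, nrde-2 at 0.029, 0.047, 0.054 and 0.19, and ain-1 at 0.0045, 0.024, 0.034 and 0.074. With 1 prep left out rrf-3 ranged from -0.052 to 0.058, nrde-2 from -0.14 to 0.34 and ain-1 from -0.17 to 0.098. Single probes of nrde-2 (0.083) and ain-1 (0.0093 and 0.53) were above 0. The second probe of wago-4 also had the other sign (0.25). The cause was not tested. The count for the ERI list was 3 with array weights, 2 with scale normalization or the month as a block, and 0 on features with all 4 arrays, and without preps 1, 2, 3 and 4 it was 0, 1, 1 and 0. The higher soma markers numbered 5 with array weights and 1 to 5 with 1 prep left out, against 3. The ratio of prg-1 could not be fitted without prep 1, 3 or 4, which leaves under 3 arrays. No paired analysis was possible because the labels give 1 group, so that no replicate block across groups could be fitted. Differences between genes were taken within each prep. Without intensities, no filter on dim spots could be made.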
